A study of Mus musculus with 9 samples.

Results

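The genes described here make up the lysosome and the autophagy pathway that delivers cargo to it. They were chosen by name from the authors' table: 39 listed lysosomal and autophagy genes, plus every gene whose name starts with Atp6v, the prefix of the subunits of the vacuolar proton pump (V-ATPase). Of the listed genes 38 were found, and Naglu is not analysed here. With 16 Atp6v genes this gave 54 members of 13499 genes in the table. They fall into 3 regulators, 15 hydrolases, 3 lumenal cofactors, 6 membrane proteins, 11 autophagy genes and 16 V-ATPase subunits. RNA was sequenced in 9 libraries of C57BL/6 mouse embryonic stem (ES) cells, grown with LIF on plates coated with gelatine; a cytometer sorted the cells on GFP-Myc or EYFP fluorescence. The 3 sorted populations were High C-myc, Medium C-myc and Low C-myc, called High, Medium and Low below, with 3 libraries each that the labels call biological replicas. The labels do not say which reporter served which sample, nor how the reporter allele was made or whether the cells came from 1 clone.

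Lysosomes are acidic compartments in which hydrolases break down proteins, lipids and sugar chains. The V-ATPase pumps protons into them, membrane proteins protect and connect them, and autophagy brings them parts of the cell itself. Many of these genes can be switched on together by TFEB, TFE3 and MITF, related factors that bind a DNA motif called CLEAR, which holds the E-box CACGTG. Myc, a transcription factor that promotes growth, also binds the E-box as a dimer with Max.

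Reads recovered from the deposited normalised read counts, over the 13499 genes of the table only, numbered 11114936 to 16755566 per library. Column totals of the normalised counts were 953055 to 1026948. Myc RNA averaged 106.4 ± 5.71 in High, 67.1 ± 2.54 in Medium and 26 ± 1.75 in Low (SD, n = 3 each), in the order of the labels. All 10 ES cell markers looked for were in the table, with a summed signal of 6072 to 6797 in High, 5759 to 6383 in Medium and 4865 to 6407 in Low, and 0 of 8 macrophage markers. Of the 10 ES cell markers, 5 were higher in High than in Low (Esrrb, Zfp42, Klf4, Tfcp2l1 and Tdgf1) and 0 lower. Between Medium and Low 4 of them were higher in Medium and 0 lower. Over all genes 28.4% and 12.0% changed in these comparisons. Of 14 trophoblast markers 10 were found, without Cdx2, Elf5, Hand1 and Plac1. Their summed signal was 367 to 414 in High, 523 to 662 in Medium and 879 to 950 in Low. Peg10 (242, 345 and 367 in High, Medium and Low) and Tfap2c (95.3, 139.8 and 214.7) made up most of it. Lower in High than in Low were 9 of the 10, while Eomes did not pass (limma adjusted p = 0.41). Of 14 primitive and visceral endoderm markers 7 were found, and Gata4, Gata6 and Sox17 were among those not found. Their summed signal was 1811 to 2010 in High, 1502 to 1730 in Medium and 1069 to 1326 in Low. Apoe (1434 in High, 1186 in Medium and 957 in Low) and Sparc (428 in High, 342 in Medium and 221 in Low) made up most of it; 4 of the 7 were higher in High than in Low, and Dab2 was lower (log2 fold change -1.13, limma adjusted p = 0.000424). That of the fibroblast markers (7 of 10 found) was 212 to 251 in High, 178 to 209 in Medium and 97.8 to 109 in Low. Vim, at 200.6 in High, 144.9 in Medium and 72.6 in Low, made up most of that sum; Vim and Thy1 were higher in High than in Low, while Col1a1, Col1a2, Col3a1, Dcn and Postn did not pass (limma adjusted p from 0.412 to 0.976), and the 3 collagens were highest in Medium. No found marker was at 0 in any library. These sums moved with the populations, and their part in the results below was not tested. Low replicate 1 stood apart from the other Low libraries: the log2 difference between long transcripts (at least 4729 nt) and short ones (at most 2100 nt), each relative to the gene's mean, was 0.28 in it, against -0.59 and -0.27 in Low replicates 2 and 3. It ran from -0.07 to 0.25 in High and from -0.05 to 0.30 in Medium. Low replicate 1 thus lay within the range of Medium, and Low replicates 2 and 3 lay below every High and Medium library. Counts are also given without Low replicate 1. Those fits keep only the Low libraries below that range, so population and this length difference cannot be told apart in them. In bulk RNA, fewer cells of a type and less RNA per cell cannot be told apart.

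Between High and Low, most members that changed were lower in High, with a few higher. Mean signal of the prosaposin gene Psap was lower in High by 1.59-fold, of the progranulin gene Grn by 1.52-fold and of the autophagy gene Gabarapl1 by 1.57-fold. The hydrolase gene Manba and the regulators Mitf and Tfeb were 2.38-fold, 2.02-fold and 1.6-fold higher. Of 54 members, 15 changed (limma, adjusted p under 0.05 over all genes), 3 higher and 12 lower, where 28.4% of all genes changed, 13.8% higher and 14.6% lower. The share changed, 27.8%, is near that background; the split was 5.6% higher and 22.2% lower. The median log2 fold change was -0.20 over the members and 0 over all genes tested. In 5 members every High library lay above every Low library and in 19 below, against 20.2% and 21.4% of all genes. With replicate number as a block 25 members changed, 4 higher and 21 lower (38.8% of all genes, 20.2% higher and 18.6% lower). Without Low replicate 1, 32 changed, 5 higher and 27 lower (43.3% of all genes, 22.7% higher and 20.6% lower). Both include the 15.

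**Figure D1:**
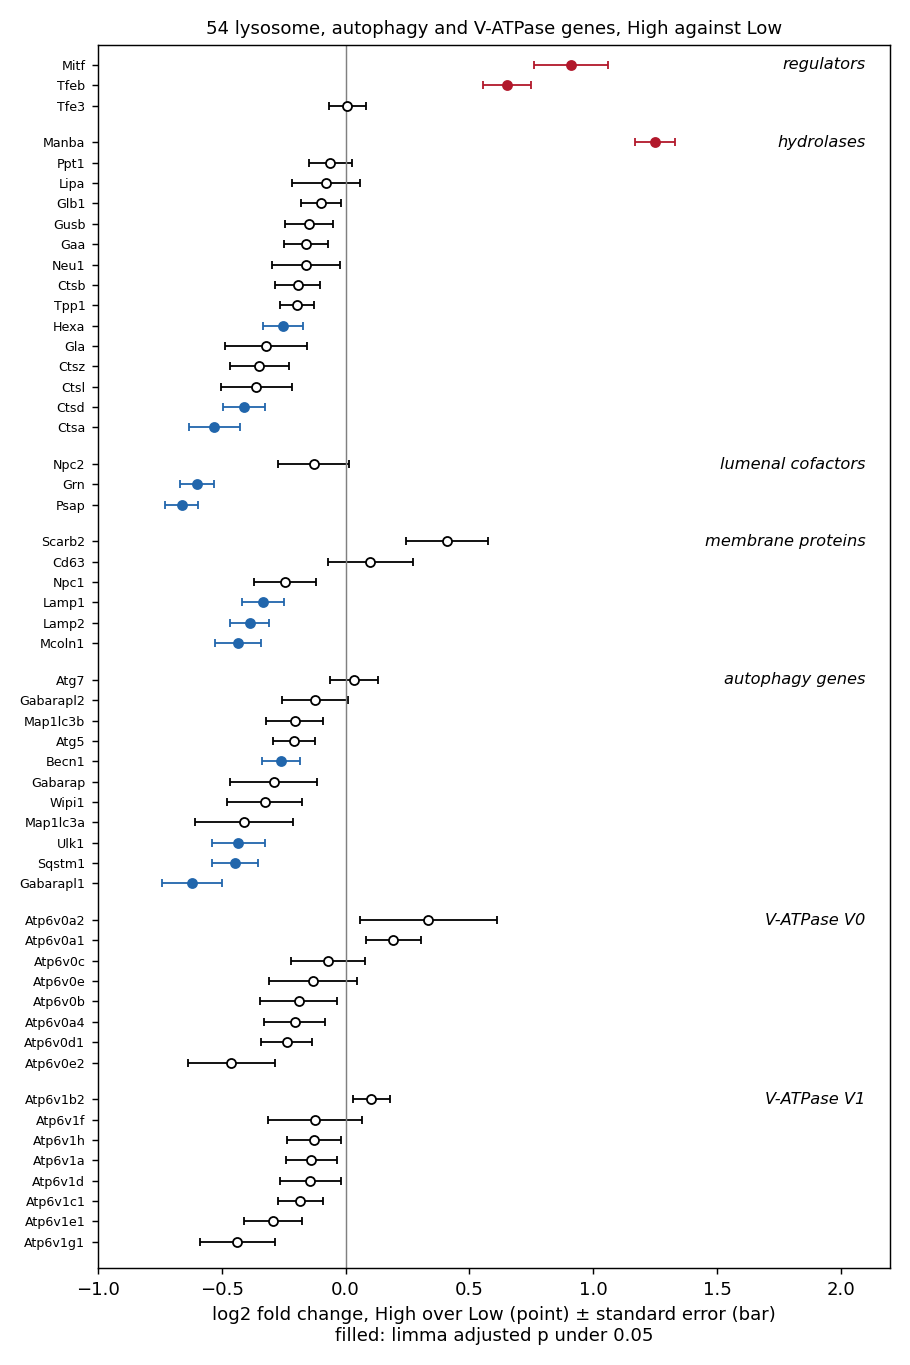
Log2 fold change of High over Low (x axis, point) with its standard error (bar) for each of 54 members, grouped by class; filled points passed limma at an adjusted p under 0.05. The 12 filled points left of 0 lie among cofactors, hydrolases, membrane proteins and autophagy genes, the 3 right of 0 are Mitf, Tfeb and Manba, and all 16 V-ATPase subunits are open.

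The MiT/TFE regulators differed among themselves. Tfeb read 38.8, 40.3 and 46.8 in High, 34.5, 38 and 32.9 in Medium and 25.8, 27 and 26.1 in Low. Every High library lay above every Medium library, and every Medium library above every Low library. High over Low gave a log2 fold change of 0.65 (SE 0.10, limma adjusted p = 0.00107), and Medium over Low 0.40 (adjusted p = 0.0271). The call for Medium against Low was lost without any Medium library or Low replicate 3 (adjusted p from 0.0613 to 0.102). Mitf, best known for pigment cells and osteoclasts, was low throughout, at 10.6, 9.34 and 9.73 in High, 9.1, 9.26 and 9.45 in Medium and 6.33, 3.76 and 4.61 in Low. High and Medium overlapped, and both lay above every Low library. Its log2 fold change was 0.91 for High over Low (SE 0.15, adjusted p = 0.00192) and 0.82 for Medium over Low (adjusted p = 0.00929).

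Tfe3, the regulator with the most RNA, did not pass in any comparison: it read 135.3, 145.6 and 138.9 in High, 130.6, 134.5 and 141.2 in Medium and 137.1, 133.3 and 147.7 in Low. The populations overlapped, and the log2 fold change of High over Low was 0.01 (SE 0.07, adjusted p = 0.957). Per kilobase of its longest annotated transcript, Tfe3 averaged 21.9 over the 9 libraries, Tfeb 14.7 and Mitf 1.64. On GRCm38 (GENCODE M21), Tfeb lies at chr17:47737030-47792419, Mitf at chr6:97807052-98021349 and Tfe3 at chrX:7762560-7775202.

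Promoters were read for the E-box CACGTG, which is the same on both strands, and for its longer form TCACGTGA, which contains it and is also the same on both strands. RefSeq windows on GRCm38.p6, from 250 bases before to 50 after an annotated start, were at hand for 45 of 54 members, 54 windows in all. CACGTG was in 25.9% of members' windows, against 9.95% of the windows of genes in the table and 7.15% of all windows. TCACGTGA was in 13% of members' windows, against 1.77% and 0.974%. A form of 10 bases, with a G before and a C after TCACGTGA, was also read. It was in 0 of the 54 windows of members, against 0.686% and 0.326%, so no excess was seen for this form. With so low a background share, 54 windows cannot tell whether members hold it less often than other genes. Members were listed by name from pathways known for CLEAR motifs, so the excess of CACGTG and TCACGTGA is no new result. A match is letters in a window and no evidence of binding. Of 14 members with CACGTG, 0 were higher in High and 4 lower (Ctsa, Ctsd, Lamp1 and Mcoln1), with a median log2 fold change of -0.22; over all genes 28.4% changed. Of 7 with TCACGTGA, 0 were higher and 3 lower, with a median of -0.32. Of 31 without CACGTG, 3 were higher and 7 lower, with a median of -0.16. In the same comparison 13.8% of all genes were higher and 14.6% lower. These groups are small, and members with and without the motif were not tested against each other. The 3 regulators and the 3 lumenal cofactors had no CACGTG in their windows.

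**Figure D2:**
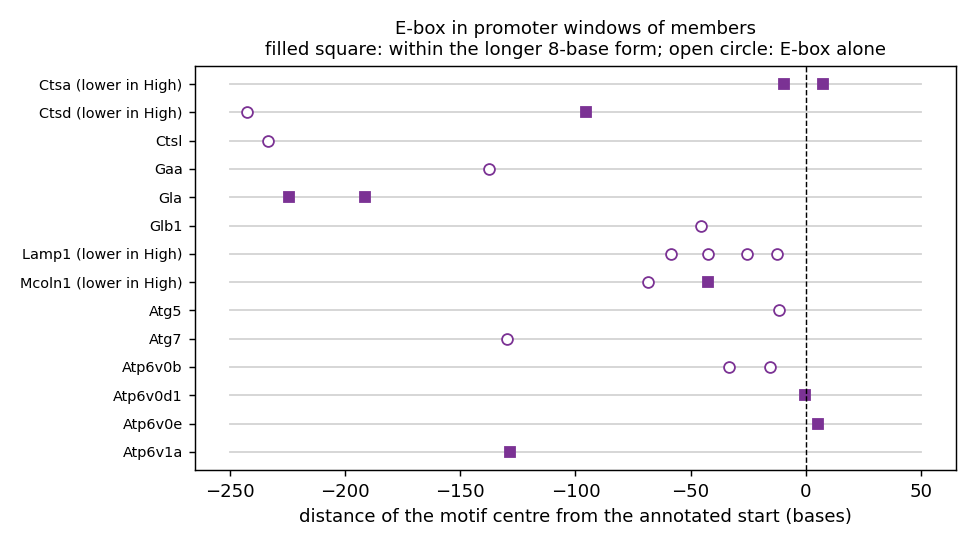
Place of each CACGTG in the promoter windows of the 14 members that hold it; the x axis is the distance of the motif's centre from the annotated start in bases, and the dashed line is that start. Filled squares lie within TCACGTGA and open circles do not; Lamp1 has 4 open circles just before the start, and the 4 genes marked as lower in High are Ctsa, Ctsd, Lamp1 and Mcoln1.

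Among the 15 hydrolases measured, Manba rose in High and Ctsa, Ctsd and Hexa fell, while 11 did not pass (28.4% of all genes changed). Manba encodes beta-mannosidase, which takes mannose off sugar chains. It read 415.6, 428.7 and 425.4 in High, 339, 359.5 and 352 in Medium and 160.3, 191.4 and 182.1 in Low. The populations did not overlap and stood in the order of Myc level, with the wider gap between Medium and Low. High over Low gave a log2 fold change of 1.25 (SE 0.08, adjusted p = 1.08e-05), and Medium over Low 0.98 (adjusted p = 0.000214). For High over Medium it was 0.27 (adjusted p = 0.211). Manba lies at chr3:135485611-135571404 on GRCm38. Median log2 fold change over the 15 hydrolases was -0.19, with 14 of 15 values below 0, against 6751 of 13499 genes.

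Cathepsin A (Ctsa), a carboxypeptidase that also protects beta-galactosidase and neuraminidase, read 108.8, 126.1 and 124.1 in High, 110.3, 134.9 and 131.7 in Medium and 158.2, 184.4 and 177 in Low. High and Medium overlapped below all Low libraries. Its log2 fold change was -0.53 for High over Low (SE 0.10, adjusted p = 0.00485) and -0.46 for Medium over Low (adjusted p = 0.0219); the second call was lost without Medium replicate 1 or 3 or Low replicate 2 or 3 (adjusted p from 0.0581 to 0.0918). Cathepsin D (Ctsd), an aspartic protease, read 219.9, 237.4 and 246.6 in High, 259.7, 276.4 and 249.7 in Medium and 288.8, 333.8 and 313.8 in Low. The 3 populations did not overlap, in falling order of Myc level, and High over Low gave -0.41 (SE 0.08, adjusted p = 0.00625). Hexa, the alpha subunit of beta-hexosaminidase, read 70.4, 72.6 and 72 in High, 79.97, 81.8 and 71.6 in Medium and 80.7, 91.95 and 84.55 in Low. Medium spanned the gap between High and Low. Its change was the smallest of the 15 (-0.25, SE 0.08, adjusted p = 0.0445). It was lost without any single library other than Low replicate 1 (adjusted p from 0.0501 to 0.125).

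The promoter windows of Manba, the hydrolase that rose, and of Ctsa and Ctsd, the 2 that fell and hold E-boxes, are shown for comparison. The window of Hexa, which also fell, holds no E-box, and those of Ctsl, Gaa, Gla and Glb1, which did not pass, do. Capitals mark CACGTG, of which Ctsa and Ctsd have 2 each and Manba none; both in Ctsa and the second in Ctsd lie within TCACGTGA. Ctsa has 2 annotated starts, and the window with E-boxes is given. The windows of Manba, Ctsa and Ctsd are at chr3:135485361-135485660 (plus strand), chr2:164833523-164833822 (plus) and chr7:142387778-142388077 (minus).
Manba: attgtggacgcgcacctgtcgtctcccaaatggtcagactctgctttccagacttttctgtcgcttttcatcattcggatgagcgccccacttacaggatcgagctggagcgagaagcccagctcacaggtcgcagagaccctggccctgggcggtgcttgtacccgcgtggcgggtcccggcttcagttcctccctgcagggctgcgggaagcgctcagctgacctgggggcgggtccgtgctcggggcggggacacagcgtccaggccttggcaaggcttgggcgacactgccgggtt
Ctsa: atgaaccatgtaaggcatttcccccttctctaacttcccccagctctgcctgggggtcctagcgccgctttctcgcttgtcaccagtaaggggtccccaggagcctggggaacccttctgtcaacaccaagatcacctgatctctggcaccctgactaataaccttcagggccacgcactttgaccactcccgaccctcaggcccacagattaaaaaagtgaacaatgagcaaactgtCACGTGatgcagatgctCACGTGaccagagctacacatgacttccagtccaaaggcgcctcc
Ctsd: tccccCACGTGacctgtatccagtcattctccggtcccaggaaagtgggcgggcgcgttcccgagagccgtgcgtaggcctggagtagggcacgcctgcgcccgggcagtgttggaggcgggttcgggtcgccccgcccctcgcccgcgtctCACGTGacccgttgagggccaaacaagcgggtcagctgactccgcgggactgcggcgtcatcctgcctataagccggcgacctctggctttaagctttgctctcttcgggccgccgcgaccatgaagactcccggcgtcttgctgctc

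Cathepsin B (Ctsb), a cysteine protease, was below Low in every High library but did not pass: 107.1, 109.6 and 101.9 in High, against 109.8, 135 and 121.4 in Low (log2 fold change -0.19, adjusted p = 0.136; 0.0231 without Low replicate 1). Ctsl, Ctsz, Gla and Tpp1 also did not pass, with log2 fold changes of -0.36, -0.35, -0.32 and -0.20 and adjusted p of 0.0909, 0.0542, 0.176 and 0.0569. All 4 passed with the replicate block (0.00664, 0.0194, 0.0366 and 0.0305) and without Low replicate 1 (0.00366, 0.00553, 0.0246 and 0.0303). Tpp1, a peptidase that trims tripeptides from protein ends, was lower in every High library (76.1 to 79.5) than in any Low library (86.1 to 91.5). Gaa, Glb1, Gusb, Neu1, Lipa and Ppt1 had log2 fold changes from -0.16 to -0.06, with adjusted p from 0.212 to 0.708. In all, 8 hydrolases changed with the block (38.8% of all genes) and 9 without Low replicate 1 (43.3% of all genes).

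The lumenal cofactors, proteins that work inside the lysosome without cutting, held the member with the largest fall, Psap. Psap encodes the precursor of the saposins, which present lipids to hydrolases. It read 216.9, 223 and 218.8 in High, 270, 263.4 and 257 in Medium and 359.9, 334.1 and 350.5 in Low. No library overlapped with another population, and the log2 fold change was -0.66 for High over Low (SE 0.07, adjusted p = 0.000123) and -0.40 for Medium over Low (adjusted p = 0.0065). For High over Medium it was -0.26 (adjusted p = 0.143). Grn, which encodes progranulin, read 89.9, 91.3 and 89.3 in High, 103, 99.9 and 105.9 in Medium and 131, 140.3 and 140.6 in Low. Its populations stood apart in the same order, with -0.60 for High over Low (SE 0.07, adjusted p = 0.000225) and -0.41 for Medium over Low (adjusted p = 0.00601). Npc2, which carries cholesterol in the lumen, did not pass (-0.13, adjusted p = 0.536): Low replicate 1 read 110 and Low replicates 2 and 3 read 171.3 and 152.4, around the 122.7 to 138.1 of High. Without Low replicate 1 it passed as lower (adjusted p = 0.0135). On GRCm38 Psap lies at chr10:60277627-60302597 and Grn at chr11:102430315-102437048.

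Of 6 lysosomal membrane proteins, 3 fell in High, 0 rose and 3 did not pass (28.4% of all genes changed), with a median log2 fold change of -0.29. Lamp1, the main glycoprotein lining the lysosome, had the highest level per kilobase of all members (157). It read 297.4, 319.8 and 318.7 in High, 357.2, 336.4 and 337.6 in Medium and 361.6, 434.1 and 387.2 in Low. The populations did not overlap, and High over Low gave -0.33 (SE 0.08, adjusted p = 0.0168); the call was lost without High replicate 1 (0.0673) or Low replicate 3 (0.0536). Lamp2, its partner in the membrane, read 32.95, 30.7 and 34.6 in High, 40.02, 37.03 and 36.96 in Medium and 43.4, 43.3 and 42.6 in Low, also without overlap (-0.39, SE 0.08, adjusted p = 0.00617). Mcoln1, a calcium channel of the lysosome, read 30.2, 32.5 and 31.5 in High, 29.3, 34.9 and 35.7 in Medium and 41.5, 42.6 and 44.4 in Low. High and Medium overlapped, both below Low, and High over Low gave -0.44 (SE 0.09, adjusted p = 0.00736). Medium over Low gave -0.36 (adjusted p = 0.0362), a call lost without any single library other than Low replicate 1 (0.0525 to 0.138).

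Scarb2, the receptor that brings glucocerebrosidase to lysosomes, went the other way without passing. It read 66.1, 57.6 and 55.9 in High, 64.1, 59.1 and 59.6 in Medium and 59.9, 35 and 42.7 in Low, so Low replicate 1 alone lay within the range of High. Its log2 fold change was 0.41 (adjusted p = 0.0915; 0.0221 with the replicate block; 0.00147 without Low replicate 1). The cholesterol exporter Npc1 gave -0.25 (adjusted p = 0.171; 0.0228 with the block), and the tetraspanin Cd63 0.10 (adjusted p = 0.706). With the block 5 membrane proteins changed, 1 higher and 4 lower (38.8% of all genes, 20.2% higher and 18.6% lower). Of the windows at hand for the 3 that fell, those of Lamp1 (chr8:13158911-13159210, plus) and Mcoln1 (chr8:3500269-3500568, plus) hold E-boxes, 4 and 2, shown in capitals to place their spacing; that of Lamp2 holds none.
Lamp1: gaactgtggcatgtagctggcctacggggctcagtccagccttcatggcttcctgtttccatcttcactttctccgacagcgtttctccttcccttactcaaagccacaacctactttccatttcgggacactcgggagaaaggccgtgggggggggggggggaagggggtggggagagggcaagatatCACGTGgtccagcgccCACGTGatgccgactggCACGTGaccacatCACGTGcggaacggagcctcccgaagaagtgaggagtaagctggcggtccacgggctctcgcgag
Mcoln1: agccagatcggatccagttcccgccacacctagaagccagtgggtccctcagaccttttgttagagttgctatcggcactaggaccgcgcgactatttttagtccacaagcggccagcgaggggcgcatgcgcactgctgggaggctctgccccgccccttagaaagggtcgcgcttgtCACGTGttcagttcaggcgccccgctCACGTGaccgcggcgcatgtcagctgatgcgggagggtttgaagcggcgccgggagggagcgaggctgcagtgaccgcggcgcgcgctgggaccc

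**Figure D3:**
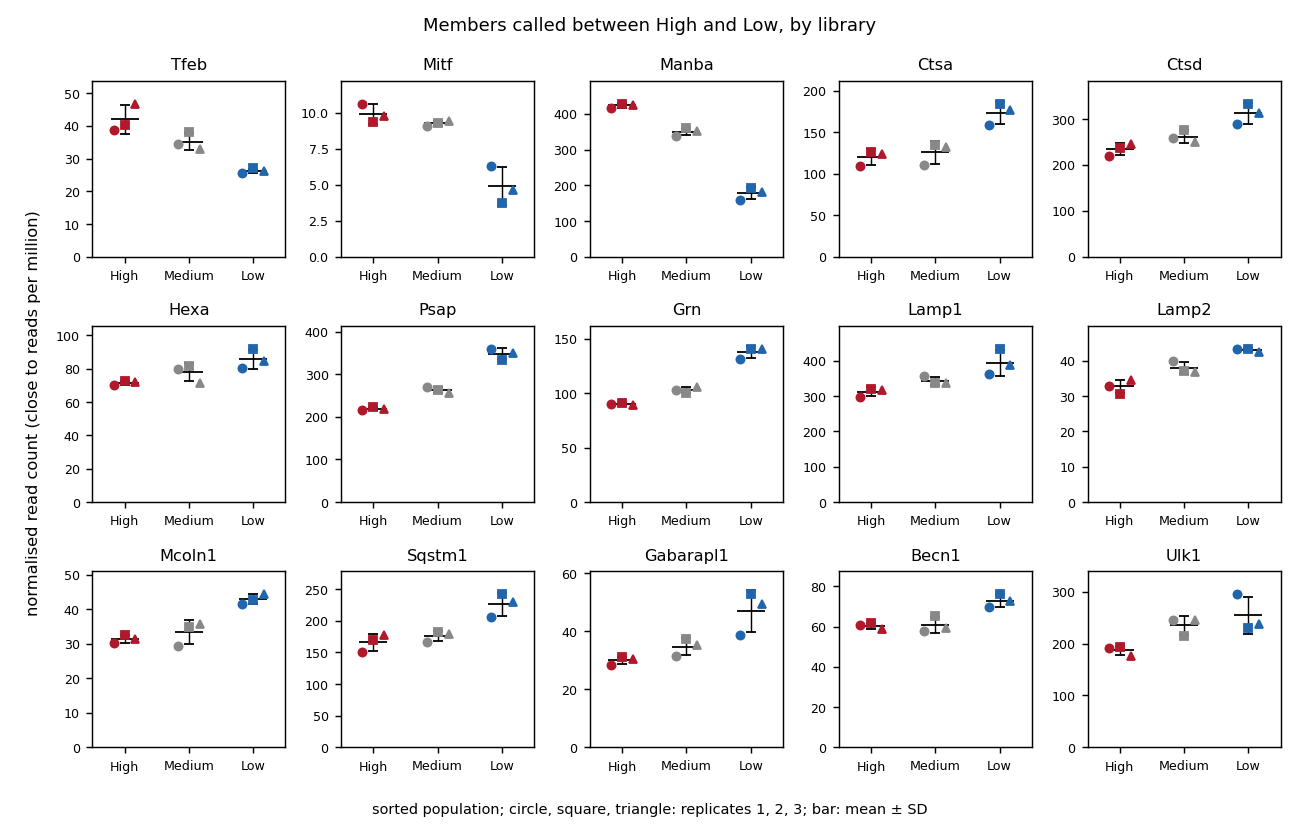
Normalised read count (y axis, starting at 0) of the 15 members that changed between High and Low, by population (x axis); circles, squares and triangles are replicates 1, 2 and 3, and bars are mean ± SD. High and Low do not overlap in any panel, and the mean of Medium lies between the other means in all 15.

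Of 11 autophagy genes, 4 fell in High, 0 rose and 7 did not pass (28.4% of all genes changed), with a median log2 fold change of -0.29. Gabarapl1, a ubiquitin-like protein attached to autophagosome membranes, read 28.5, 31.1 and 30.3 in High, 31.4, 37.3 and 35.4 in Medium and 38.9, 52.9 and 49.3 in Low. The populations stood apart, and High over Low gave -0.62 (SE 0.12, adjusted p = 0.00464). Sqstm1, the cargo receptor p62, read 150.5, 169.5 and 177.7 in High, 167.3, 182.8 and 179.5 in Medium and 206.7, 242.4 and 230.3 in Low. High and Medium overlapped below Low, with -0.45 for High over Low (SE 0.09, adjusted p = 0.00608). For Medium over Low it was -0.36 (adjusted p = 0.0357), lost without High replicate 2 or 3, any Medium library or Low replicate 2 or 3 (0.0536 to 0.130).

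The kinase Ulk1, which starts autophagy, read 191.3, 193.5 and 176.5 in High, 246.3, 214.6 and 245.1 in Medium and 295.5, 230.4 and 237.6 in Low. Here Medium lay with Low, above every High library. High over Low gave -0.43 (SE 0.11, adjusted p = 0.0148), a call lost without High replicate 3 (0.0606), and High over Medium gave -0.33 (adjusted p = 0.27). Becn1, a subunit of the lipid kinase complex of autophagy, read 60.9, 61.7 and 58.8 in High, 57.9, 65.2 and 59.2 in Medium and 69.9, 76.1 and 72.5 in Low, with High and Medium overlapping below Low (-0.26, SE 0.08, adjusted p = 0.0301). That call was lost without any High library, Medium replicate 3, or Low replicate 2 or 3 (0.0501 to 0.104).

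The closest relatives of Gabarapl1 did not pass. Map1lc3b, the most used marker of autophagosomes, read 97.25, 99.3 and 104.2 in High, against 96.8, 132.7 and 120.9 in Low (-0.21, adjusted p = 0.212). Map1lc3a, Gabarap and Gabarapl2 gave -0.41, -0.29 and -0.12 (adjusted p = 0.15, 0.245 and 0.532). In each of these 4, Low replicate 1 lay within or below the range of High; all 4 passed as lower without it (0.0115 for Map1lc3b, 0.0156 for Map1lc3a, 0.0372 for Gabarap and 0.0312 for Gabarapl2), and Map1lc3a also with the block (0.0177). These are close relatives with processed copies elsewhere in the genome, among which counting can divide reads, so their values are uncertain. Atg5 and Atg7, of the machinery that attaches these proteins, gave -0.21 (adjusted p = 0.0949; 0.0466 without Low replicate 1) and 0.03 (0.831). Wipi1, which binds the lipid made at the forming autophagosome, was the lowest member per kilobase (1.04) and gave -0.33 (adjusted p = 0.131).

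Of 16 V-ATPase subunits, 8 belong to the membrane ring V0 and 8 to the cytoplasmic motor V1. Between High and Low 0 changed by limma (28.4% of all genes). At an unadjusted limma p under 0.05 there were 4, against 5461 of 13499 genes. On recovered reads edgeR called 0 (27.2% of all genes) and DESeq2 1, Atp6v1g1 (28.7% of all genes). The median log2 fold change was -0.14, with 13 of 16 values below 0, against 6751 of 13499 genes. Atp6v0c, the proton-carrying ring subunit and the highest of them per kilobase (113), read 258.3, 304.8 and 301.9 in High, 257.1, 300.0 and 266.1 in Medium and 235.8, 365 and 320.4 in Low. High lay within the spread of Low (-0.07, adjusted p = 0.763). Atp6v1b2, a subunit of the ATP-splitting head, was steadier, at 170.3, 165.9 and 160.2 in High, 177.5, 157.8 and 163.8 in Medium and 148.2, 157.4 and 156.2 in Low. Every High library lay above every Low library, by little (0.10, SE 0.07, adjusted p = 0.323).

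The subunits nearest to a call were Atp6v1g1 of the stalk, at -0.44 (adjusted p = 0.0569), Atp6v0e2 at -0.46 (0.0767) and Atp6v1e1, also of the stalk, at -0.29 (0.0932). They passed with the replicate block (0.00847, 0.0235 and 0.0376). Atp6v1g1 read 56.3, 68.7 and 69.6 in High, against 70.6, 107 and 89.7 in Low, without overlap. Atp6v0a2, an a subunit found at the Golgi, read 25.3, 9.84 and 15.2 in Low, against 25.1, 18.8 and 16.9 in High (0.33, adjusted p = 0.399). Without Low replicate 1, 5 of 16 subunits changed, where 43.3% of all genes did: Atp6v0a2 higher (adjusted p = 0.0219), and Atp6v0d1, Atp6v1c1, Atp6v1e1 and Atp6v1g1 lower (0.00471, 0.0216, 0.00215 and 0.00398). Summed signal of the 16 was 1308 to 1390 in High and 1315 to 1441 in Medium, and in Low 1287 in replicate 1 but 1682 and 1520 in replicates 2 and 3.

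Isoforms of a subunit had unequal levels. Per kilobase, Atp6v0a1 averaged 8.28, Atp6v0a2 3.71 and the kidney-type Atp6v0a4 2.33, and Atp6v0e averaged 21.6 against 3.91 for Atp6v0e2. Of 11 subunits with a promoter window, 4 held CACGTG (Atp6v0b, Atp6v0d1, Atp6v0e and Atp6v1a). The window of Atp6v0d1 (chr8:105566015-105566314, minus), which links ring and motor, is shown as a case with the longer motif TCACGTGA at the start site to set beside those of Ctsa and Ctsd above. Its log2 fold change was -0.24 (adjusted p = 0.112). It passed as lower under 4 of 24 alternatives, which were rescaled totals, quantile normalization, sample weights and leaving out Low replicate 1 (0.00471 in the last); the adjusted p ran from 0.00101 to 0.312 over all 24.
Atp6v0d1: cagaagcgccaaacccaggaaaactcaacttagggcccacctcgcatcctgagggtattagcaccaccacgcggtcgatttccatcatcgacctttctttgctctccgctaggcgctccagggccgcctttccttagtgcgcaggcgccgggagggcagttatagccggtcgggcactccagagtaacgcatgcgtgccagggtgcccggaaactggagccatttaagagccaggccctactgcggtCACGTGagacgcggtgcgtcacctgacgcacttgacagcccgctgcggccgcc

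**Figure D4:**
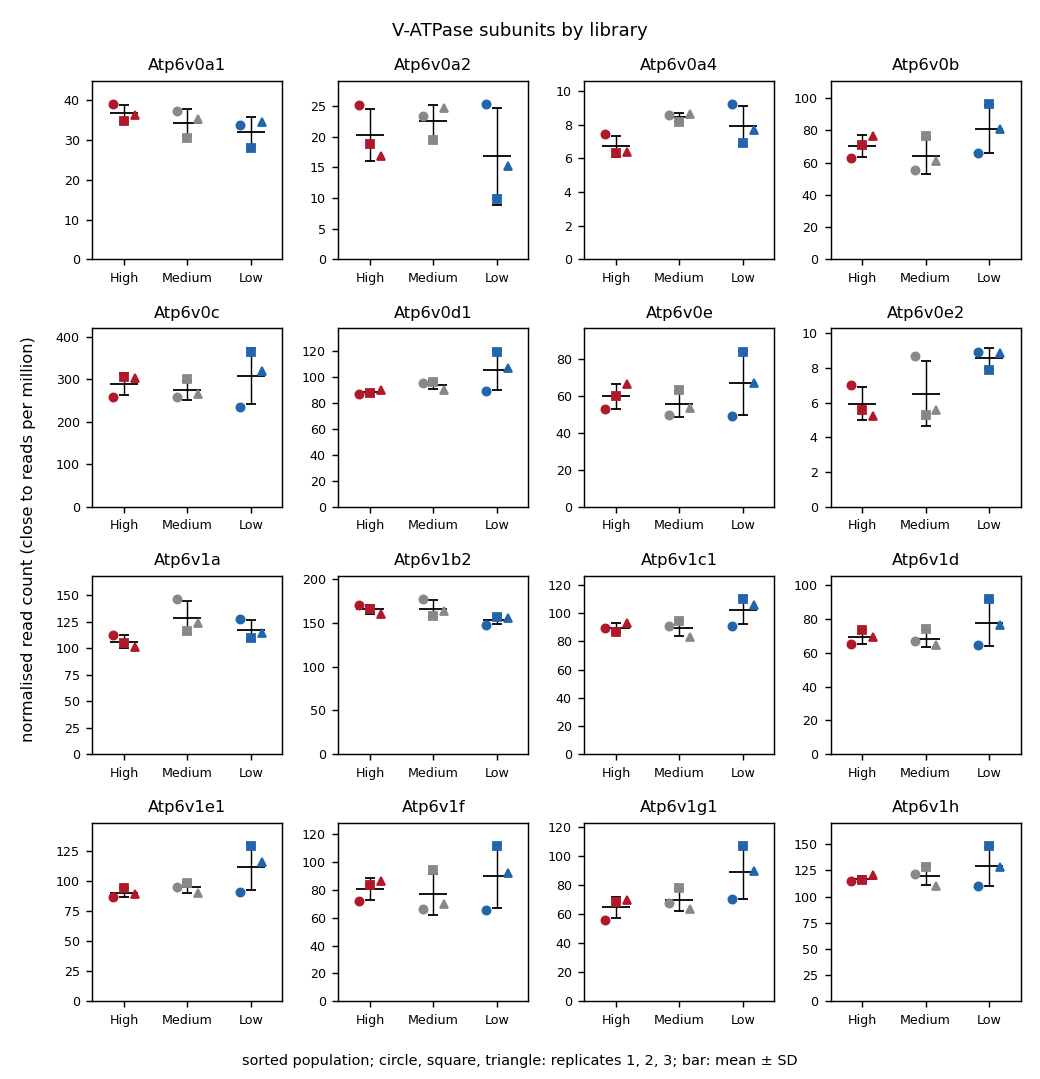
Normalised read count (y axis, starting at 0) of 16 V-ATPase subunits by population (x axis); circles, squares and triangles are replicates 1, 2 and 3, and bars are mean ± SD. In Atp6v0c, Atp6v0e, Atp6v1f and Atp6v1d the Low circle (replicate 1) lies at or below the High values while the other Low points lie above them; in Atp6v0a2 this order is turned round.

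Set side by side, the median log2 fold change of High over Low was 0.65 for regulators, -0.60 for lumenal cofactors, -0.29 for membrane proteins, -0.29 for autophagy genes, -0.19 for hydrolases and -0.14 for V-ATPase subunits. In the same order 2 of 3, 2 of 3, 3 of 6, 4 of 11, 4 of 15 and 0 of 16 members changed, with 28.4% over all genes. No test of one class against another was made. The median deviation from the gene mean, on the log2(signal + 1) scale, set Low replicate 1 apart in V-ATPase subunits and autophagy genes. For V-ATPase subunits it was -0.10 in Low replicate 1, against 0.30 and 0.16 in Low replicates 2 and 3 and -0.10 to -0.03 in High. For autophagy genes it was -0.02, against 0.35 and 0.21 in the other Low libraries and -0.13 to -0.08 in High. For membrane proteins the 3 Low libraries lay between 0.12 and 0.23 and those of High between -0.13 and -0.12. The median annotated transcript was 2876.5 nt for V-ATPase subunits, 2673 nt for autophagy genes, 3249 nt for membrane proteins and 3619 nt for hydrolases, against 3287 nt over all genes. After a correction for transcript length 21 members changed, 4 higher and 17 lower, the 15 among them (38.0% of all genes, 19.7% higher and 18.3% lower), and 1 of these was a V-ATPase subunit.

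**Figure D5:**
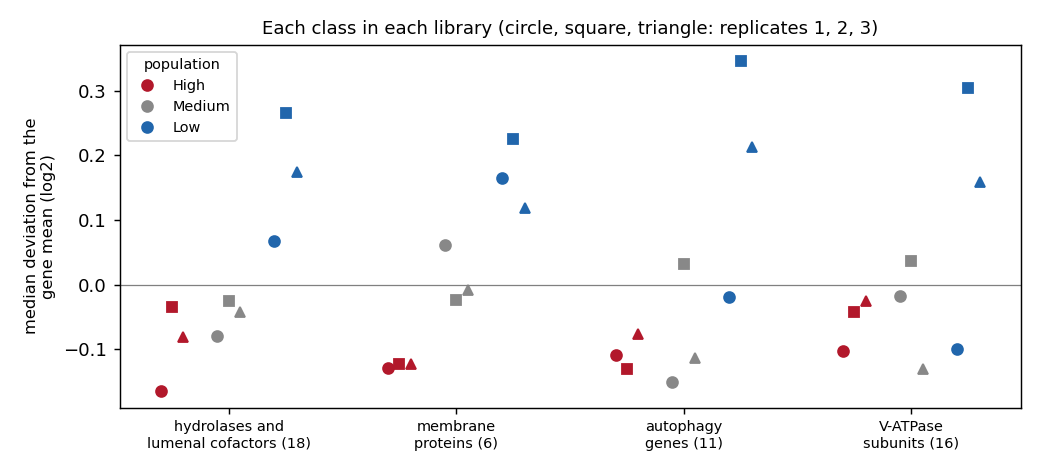
Median over the members of a class of the deviation from each gene's mean over the 9 libraries (y axis, log2), by class and population (x axis); circles, squares and triangles are replicates 1, 2 and 3, and the number of genes is in brackets. In membrane proteins all Low points lie above all High points; in V-ATPase subunits the Low circle (-0.10) lies with High and the other Low points at 0.30 and 0.16.

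More members passed between Medium and Low than between High and Medium. For Medium against Low 8 members changed, 3 higher and 5 lower, where 12.0% of all genes changed, 6.14% higher and 5.87% lower. With quantile normalization the split was 3 higher and 8 lower (11.4% of all genes, 5.51% higher and 5.9% lower). They were Tfeb, Mitf, Manba, Ctsa, Psap, Grn, Mcoln1 and Sqstm1, and all 8 were also among the 15 of High against Low, with the same sign; the comparisons share the Low libraries. Without Low replicate 1 this count was 31 of 54 (38.0% of all genes). Of the 8 calls, those of Mitf, Manba, Psap and Grn held without any single library. For High against Medium 0 of 54 changed by limma (0.407% of all genes). At an unadjusted limma p under 0.05 there were 8, against 1468 of 13499 genes. In this comparison edgeR called 0 (0.467% of all genes) and DESeq2 called 1 (1.93%), which was Psap (DESeq2 adjusted p = 0.00396). In 2 members every High library lay above every Medium library and in 11 below, against 9.34% and 10.8% of all genes. The 2 were Tfeb and Manba. Whether High against Medium differs in size from Medium against Low was not tested.

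Lists of other genes of the same pathways were read in the same fit, in which 28.4% of all genes changed, 13.8% higher and 14.6% lower. Of 27 other hydrolases found, 2 rose and 9 fell between High and Low (median log2 fold change -0.23). Naaa, an amidase of lipid amides, averaged 3.9 ± 0.439 in High and 7.62 ± 1.52 in Low (-0.80, adjusted p = 0.00356). Arsb, a sulfatase, gave -0.59 (adjusted p = 0.0278). Of 19 other membrane proteins and transporters, 1 rose and 4 fell (median -0.13), led by the ion channel Tmem175 at -0.78 (adjusted p = 0.00545) and by Laptm4b and Laptm4a at -0.66 and -0.51 (0.00151 and 0.0115).

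Of 30 other autophagy genes, 9 rose and 3 fell (median 0.18). Atg2a, a lipid transfer protein of the growing autophagosome, averaged 110.5 ± 14.9 in High and 63.6 ± 22.5 in Low (0.84, adjusted p = 0.0149), with Low replicate 1 at 88.9 and the other Low libraries at 45.6 and 56.2, and Tecpr1 18.2 ± 1.1 in High and 10.1 ± 2.15 in Low (0.81, 0.00322). Ulk2, a relative of Ulk1, was lower (-0.67, 0.0307). The median transcript of that list was 4202 nt. Of 20 genes for sorting to the lysosome, 1 rose, the adaptor Gga2 (0.22, 0.0476), and 0 fell. Of 18 genes of the mTORC1 platform, which senses amino acids on the lysosome, 3 rose and 1 fell: Rptor, Fnip2 and Rragd gave 0.65, 0.59 and 0.40 (0.0199, 0.0252 and 0.00997), and Rheb, the activator of mTORC1, -0.38 (0.0349). Of 12 V-ATPase accessory and assembly genes, 1 rose and 2 fell: Ncoa7 gave 0.72 (0.00157), Atp6ap1, the accessory subunit Ac45, -0.58 (0.00214) and the assembly factor Vma21 -0.42 (0.0149). Over all 126 related genes found, 17 rose and 19 fell, 28.6%, near the 28.4% of all genes.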

How the data were processed

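RNA of 9 libraries was sequenced as single-end reads, per the labels' protocols. Per the submitters' processing notes, cutadapt, Picard, RSEM 1.17 and limma were used, with no role or order given; the sources used here do not give build, annotation or strand use. The values the authors deposited are a signal per gene and library: counts divided by a factor per library, with column totals of 953055 to 1026948. In every library 100% of values were whole multiples of 1 read's value (within 0.001 read). The tests kept 85 genes with an identifier but no name (1.71% to 2.53% of signal).

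The test was limma 3.58.1 (R 4.3.3, variance trend) on log2(signal + 1 CPM of the library's own total), all 9 libraries and 13499 genes, population as the only term, Benjamini-Hochberg over all genes, threshold 0.05. Genes needed 1 CPM in 3 libraries, which all reached. Fold changes on this scale understate changes at low levels; ratios are of mean signal. Errors of means are SD over 3 libraries, and SE is limma's standard error of a log2 fold change. The limma p-values set a difference against the spread within populations, estimated from all 9 libraries and drawn towards the trend over genes. The lowest member had 31 reads or more in each library, and counting error weighs more in members with few reads. The related gene Arsb had as few as 9 reads in a library. Lengths and gene coordinates are from GENCODE M21 (99.4% of genes matched by identifier).

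Members, lists, the rule for named genes, tests and alternatives were chosen with earlier results of these data known. Named are all members called in any comparison, a set of fixed genes and the highest of each class; 3 called genes at most represent each related list, by absolute fold change, and 1 of these is not reported here. Libraries share replicate numbers. For High and Low, deviations of same-numbered libraries correlated at 0.53, 0.26 and 0.18, all over the preset 0.1, so the block is given as a paired check; other number pairs also exceeded 0.1 (0.31 and 0.12), and the labels state no pairing. For High and Medium (0.35, 0.17, -0.04) and Medium and Low (0.24, 0.43, -0.11) the rule was not met. The block was fitted to all 9 libraries, so every result with it, also for High against Low, pairs Medium as well. Scripts were tested on simulated data. Alternatives include edgeR 4.0.16 and DESeq2 1.42.0 on recovered reads.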

Additional observations from a re-analysis of the deposited data

How the results depend on the processing

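Over 24 alternatives, 11 of the 15 High against Low calls held in each that gave a value, and those of Hexa, Lamp1, Becn1 and Ulk1 were lost in at least 1; no called member changed direction. Leaving out 1 library gave 12 to 32 members for High against Low (17.4% to 43.3% of all genes), 4 to 31 for Medium against Low (3.9% to 38.0%) and 0 in each case for High against Medium. In the same fits 3 to 9 hydrolases, 2 to 4 membrane proteins, 2 to 9 autophagy genes and 0 to 5 V-ATPase subunits changed between High and Low. Leaving out Low replicate 1 gave the highest count in each of these ranges above 0. Sample weights gave 36 members for High against Low (58.2% of all genes), 4 for High against Medium (5.93%) and 36 for Medium against Low (52.2%). These weights were estimated per library and shared by all genes. By class they gave 11 hydrolases, 5 membrane proteins, 9 autophagy genes and 6 V-ATPase subunits for High against Low. The replicate block gave 25 members for High against Low (38.8% of all genes), 16 for Medium against Low (27.1%), 8 hydrolases, 5 membrane proteins and 3 V-ATPase subunits. The transcript length correction gave 1 member for High against Medium (2.3% of all genes), 13 for Medium against Low (20.1%), 5 membrane proteins and 1 V-ATPase subunit. The block with the length correction gave 27, 3 and 18 members for High against Low, High against Medium and Medium against Low (45.0%, 3.78% and 28.4% of all genes), 9 hydrolases, 5 membrane proteins and 4 V-ATPase subunits. Fitting only the 2 populations gave 4 members for Medium against Low (4.86% of all genes) and 1 V-ATPase subunit for High against Low (22.1%). For High against Low, quantile normalization gave 8 hydrolases and 3 V-ATPase subunits (26.6%), and rescaling to the same total 3 V-ATPase subunits (27.4%). DESeq2 gave 1 member for High against Medium (1.93%) and 1 V-ATPase subunit for High against Low (28.7%). Robust variance shrinkage, added after seeing the data, gave 15, 0 and 8 members for the 3 comparisons. The causes of these shifts were not tested.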
